A study of Homo sapiens with 14 samples.

Results

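The 9 genes described here encode members of the S100 family: S100A2, S100A4, S100A6, S100A8, S100A9, S100A11, S100A14, S100A16 and S100P. They were 9 of the 18372 genes measured, and each was read by 1 probe set that carried its symbol alone. RNA abundance was measured on 14 arrays of 7 human prostate cancer cell lines, with 2 arrays of different culture passages for each line. PC3-N and PC3-ML carry the name of PC3, a line derived from a bone metastasis of prostate cancer. PC3-ML (Clone 1) and PC3-ML (Clone 3) were each grown from a single PC3-ML cell and are called Clone 1 and Clone 3 below. DU-145 derives from a brain metastasis of prostate cancer. PC3-N(PDGFRα) and DU-145 (PDGFRα) overexpressed the alpha receptor for platelet-derived growth factor; the labels do not say how the receptor was introduced, and a vector-only line was not analysed here. The labels call PC3-ML, both clones and PC3-N(PDGFRα) bone metastatic, and both DU-145 lines and PC3-N non-bone metastatic. All lines grew in the same serum-containing DMEM. Each line is a single derivation, so a difference between lines is measured against the spread between passages and not between independent derivations.

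S100 proteins are small acidic proteins with a pair of EF-hand loops, which bind calcium. Most form dimers, and calcium binding opens a hydrophobic face that docks onto target proteins such as annexins, myosin heavy chains and tumour suppressors. Some members are also secreted and signal through receptors such as AGER (RAGE) and TLR4. Most S100 genes lie side by side on chromosome 1 within and next to the epidermal differentiation complex, and S100P lies on chromosome 4. In carcinoma cells the family is best known for S100A4, which binds non-muscle myosin and is linked to motility and metastasis, and for S100A2, an epithelial, mainly nuclear member that is often reduced in prostate cancer.

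The arrays gave RMA intensities on a linear scale, with array medians between 29.9 and 31.6. Across genes, which are not independent replicates, passages of the same line had a correlation of 0.989 to 0.996, and PC3 with DU-145 arrays 0.926 to 0.948. In 2 of the 14 arrays the nearest array belonged to another line: replicate 2 of PC3-N lay nearest to a PC3-ML array (r = 0.9935, against 0.9925 with its line's other array), and replicate 2 of DU-145 nearest to a DU-145 (PDGFRα) array (r = 0.9905, against 0.9891). PDGFRA, the overexpressed gene, measured 106 ± 4.32 in PC3-N and 834 ± 23.3 in its overexpressing line, and 26.9 ± 1.92 in DU-145 and 111 ± 26.4 in its overexpressing line (SD, n = 2). All 5 epithelial markers on the list differed among lines (limma F-test, adjusted p under 0.05), against 38% of all genes. EPCAM ran from 434 to 1747 over the arrays and KRT8 from 207 to 791, while KRT18 went down to 36.3 and CDH1 down to 25.0. The 2 measured markers of luminal prostate cells, KLK2 and KLK3, lay between 24.2 and 33.9 on every array, near the array median.

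Of the 9 members, 5 differed among the lines, and the DNA just before their transcription starts is printed so that members that moved together or apart can be read side by side. Each stretch covers the 110 bases before the most upstream RefSeq start (GRCh38.p14, minus strand), printed 5′ to 3′. They lie at chr1:153565845-153565954 (S100A2), chr1:153545807-153545916 (S100A4), chr1:153613138-153613247 (S100A16), chr1:152037005-152037114 (S100A11) and chr1:153535992-153536101 (S100A6). Capitals mark matches to the motifs TGANTCA (a loose form of the AP-1 element, with any base at N), TATAAA (the TATA box) and GGGCGG (the GC box).
S100A2: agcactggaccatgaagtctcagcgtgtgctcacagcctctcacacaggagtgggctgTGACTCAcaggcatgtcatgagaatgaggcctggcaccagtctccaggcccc
S100A4: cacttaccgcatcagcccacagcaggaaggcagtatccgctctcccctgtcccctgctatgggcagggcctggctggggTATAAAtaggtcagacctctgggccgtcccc
S100A16: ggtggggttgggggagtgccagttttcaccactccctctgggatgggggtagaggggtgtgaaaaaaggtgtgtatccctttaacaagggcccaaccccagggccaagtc
S100A11: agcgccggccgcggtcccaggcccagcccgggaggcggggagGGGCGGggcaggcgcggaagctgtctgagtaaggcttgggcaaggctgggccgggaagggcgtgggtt
S100A6: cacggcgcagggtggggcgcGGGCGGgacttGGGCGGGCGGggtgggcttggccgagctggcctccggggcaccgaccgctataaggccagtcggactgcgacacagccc

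The motifs were searched on both strands of 300-base windows, from 250 bases before to 50 bases after the start. Each member was read at its most upstream RefSeq start only. S100A2 and S100A16 have 2 RefSeq starts each, and their other start is not described here. The shares over all genes count 35116 windows of 27305 genes, so a gene can enter them with more than 1 start. S100A2 alone among the 9 held TGANTCA, whose first base lay 52 bases before the start; 7.709% of 35116 windows over all genes held it. TATAAA was found in S100A4 (31 bases before the start), S100A9 (29 before) and S100P (28 before), against 11.53% of all windows. GGGCGG was found in S100A6, S100A9 and S100A11, against 44.95% of all windows; S100A6 held it at 90, 79 and 75 bases before the start, the last pair overlapping each other. No match to a motif overlapped a match to another motif. S100A16 held none of the motifs in its window. The matches describe the letters of the reference and are not measured binding.

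S100A2, S100A4, S100A11, S100A16 and S100A6 differed among the 7 lines beyond the spread between passages, and S100P, S100A14, S100A9 and S100A8 did not pass the test (limma moderated F-test with Benjamini-Hochberg adjustment, adjusted p under 0.05). That is 5 of 9 members, against 38% of all genes tested. Over all 21 S100 genes measured, 7 did (33.3%). The 5 called members are also the 5 with a log2 intensity of at least 6 on 2 arrays or more. Of the 18372 genes, 6655 reached that level. The line means of a member spanned 0.59 on the log2 scale at the median, against 0.31 over all genes. The line means of 4 members (S100A2, S100A4, S100A11 and S100A16) spanned at least 1 log2 unit, as did those of 11.8% of all genes. The members were chosen with earlier results of these data known, so these shares describe them and carry no test.

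**Figure D1:**
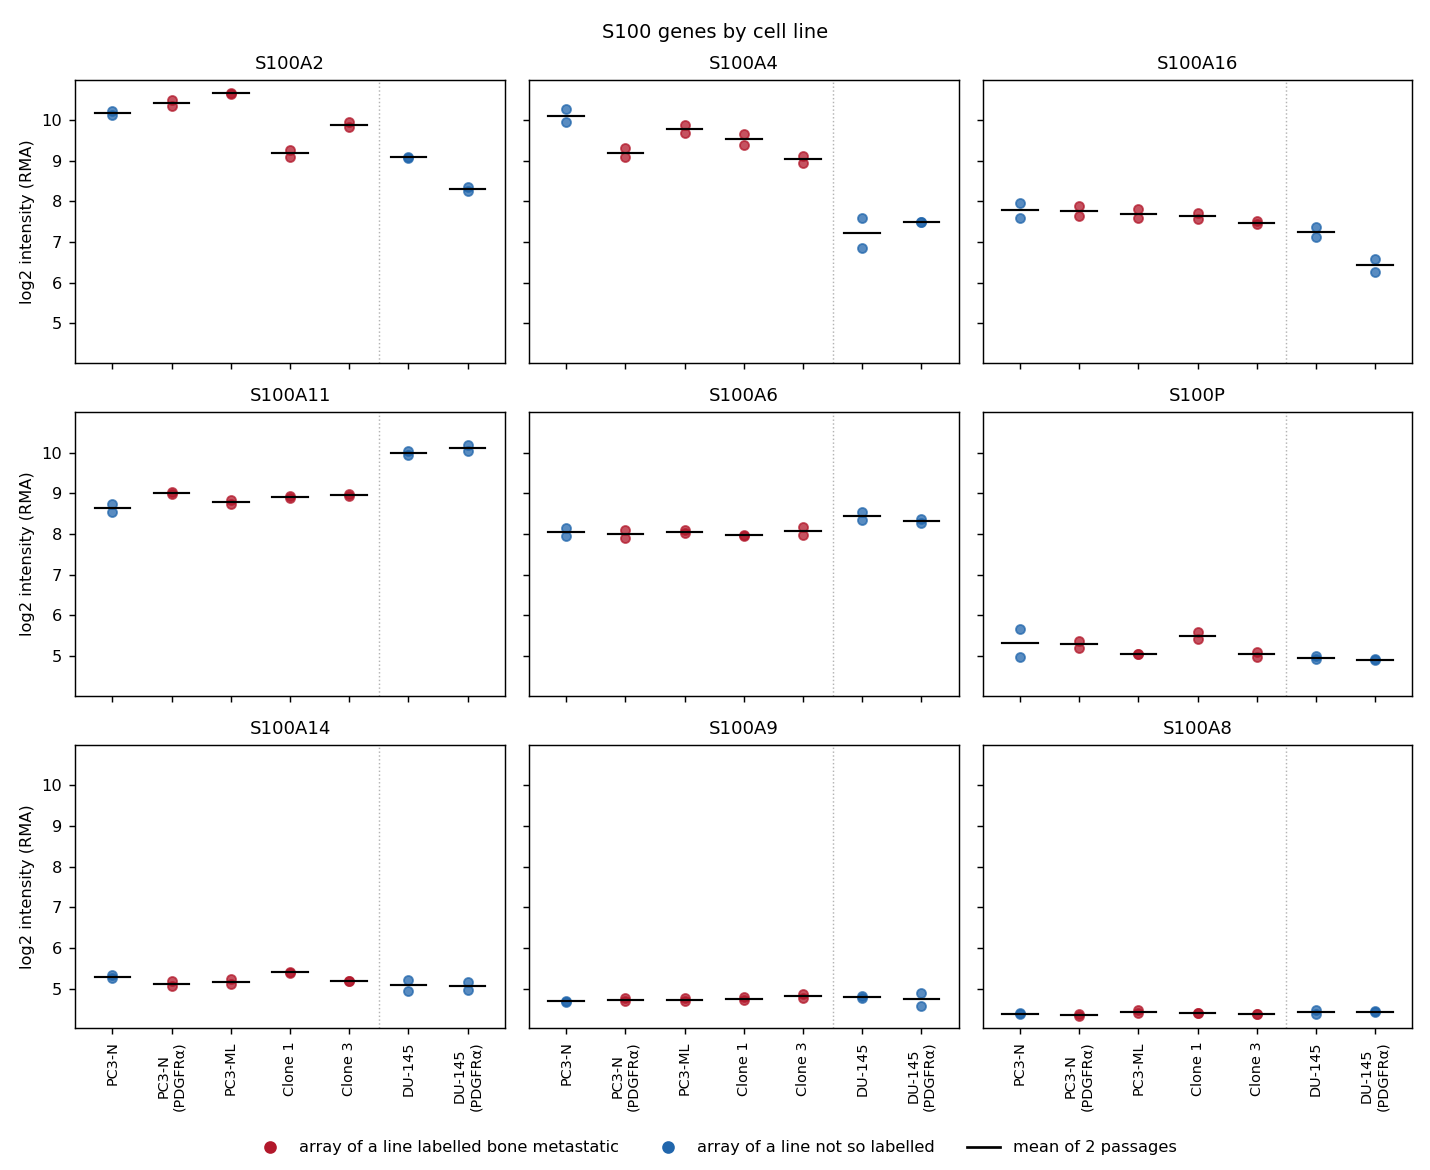
RMA intensity on the log2 scale (vertical axis) of the 9 S100 genes in the 7 cell lines (horizontal axis); points are the 2 passages of a line, black bars their mean, and colours the label of bone metastatic potential. S100A2, S100A4 and S100A16 were higher, and S100A11 and S100A6 lower, on average in the PC3 lines left of the dotted line than in the DU-145 lines right of it, and the panels of S100A9 and S100A8 are almost flat.

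S100A2 intensities on the 2 arrays of each line were 1592 and 1633 for PC3-ML, 1443 and 1299 for PC3-N(PDGFRα), 1195 and 1110.2 for PC3-N, 986 and 910.04 for Clone 3, 618 and 543 for Clone 1, 548 and 539 for DU-145, and 329 and 304 for DU-145 (PDGFRα). Only Clone 1 and DU-145 overlapped among neighbours in that order, and the passages of a line lay close together. The highest line mean was 5.10 times the lowest (range 2.35 on the log2 scale, against a pooled SD between passages of 0.08; moderated F = 214, adjusted p = 2.28e-07).

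S100A4, the myosin-binding member, had the widest range. Its intensities were 1227 and 983 for PC3-N, 823 and 935 for PC3-ML, 812 and 666 for Clone 1, 634 and 546 for PC3-N(PDGFRα), 556 and 493 for Clone 3, 179.5 and 178.7 for DU-145 (PDGFRα), and 192 and 115 for DU-145. Every array of a PC3 line lay above every array of a DU-145 line. The highest line mean was 7.39 times the lowest (range 2.88, passage SD 0.25, F = 55.8, adjusted p = 1.76e-05). Its passages also varied more than those of the other members: the pooled SD was 0.20 for S100P, the next widest, and 0.17 for S100A16.

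S100A11, which partners annexin A1 and acts in keratinocyte growth control, ran the other way. Its intensities were 1051 and 1158 for DU-145 (PDGFRα), 977 and 1056 for DU-145, 526 and 508 for PC3-N(PDGFRα), 503 and 489 for Clone 3, 488 and 472 for Clone 1, 455 and 424 for PC3-ML, and 374 and 429 for PC3-N. The DU-145 lines overlapped each other and lay above every PC3 array; PC3-ML and PC3-N also overlapped. The range was 2.76-fold (1.46 on the log2 scale, passage SD 0.08, F = 114, adjusted p = 1.77e-06).

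S100A16, a broadly expressed member with a degenerate EF-hand, was lowest in the DU-145 lines. Its intensities were 249 and 194 for PC3-N, 235 and 199 for PC3-N(PDGFRα), 192 and 223 for PC3-ML, 190.1 and 208 for Clone 1, 184 and 173 for Clone 3, 165 and 139.9 for DU-145, and 96.4 and 76.5 for DU-145 (PDGFRα). The first 4 lines overlapped in turn, and the steps from there down did not. The range was 2.56-fold (1.36 on the log2 scale, passage SD 0.17, F = 19.7, adjusted p = 0.000526).

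S100A6 (calcyclin) binds CACYBP and annexins. Its intensities were 326 and 372 for DU-145, 329 and 306 for DU-145 (PDGFRα), and between 238 and 287 on the 10 arrays of PC3 lines, where neighbours in the order overlapped. The range was 1.40-fold (0.48 on the log2 scale, F = 6.10, adjusted p = 0.0216). This call was lost without DU-145 replicate 2 (adjusted p = 0.0839) and without Clone 1 replicate 2 (adjusted p = 0.0520).

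The remaining members stayed low. S100P, a ligand of AGER first found in placenta, ran from 29.7 to 50.2 over the 14 arrays, with 42.4 and 48.2 in Clone 1 and a wide gap between 50.2 and 31.2 in PC3-N (adjusted p = 0.120 over the lines by the F-test). S100A14, an epithelial member, ran from 30.9 to 42.2 (adjusted p = 0.118). S100A9 ran from 23.9 to 29.8 (adjusted p = 0.915) and S100A8 from 20.2 to 22.4 (adjusted p = 0.781), where the lowest value of the whole table was 18.5. S100A8 and S100A9 form calprotectin, which myeloid cells make in large amounts. The 8 measured leukocyte markers of 9 lay between 19.6 and 37.4 on all arrays (LYZ highest), and their summed level was 177 to 198. In the F-test 0 of them differed among the lines (0 also at an unadjusted p under 0.05), against 38% of all genes. Intensities this close to the lower end can be compressed, so the size of a fold change there is uncertain.

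**Figure D2:**
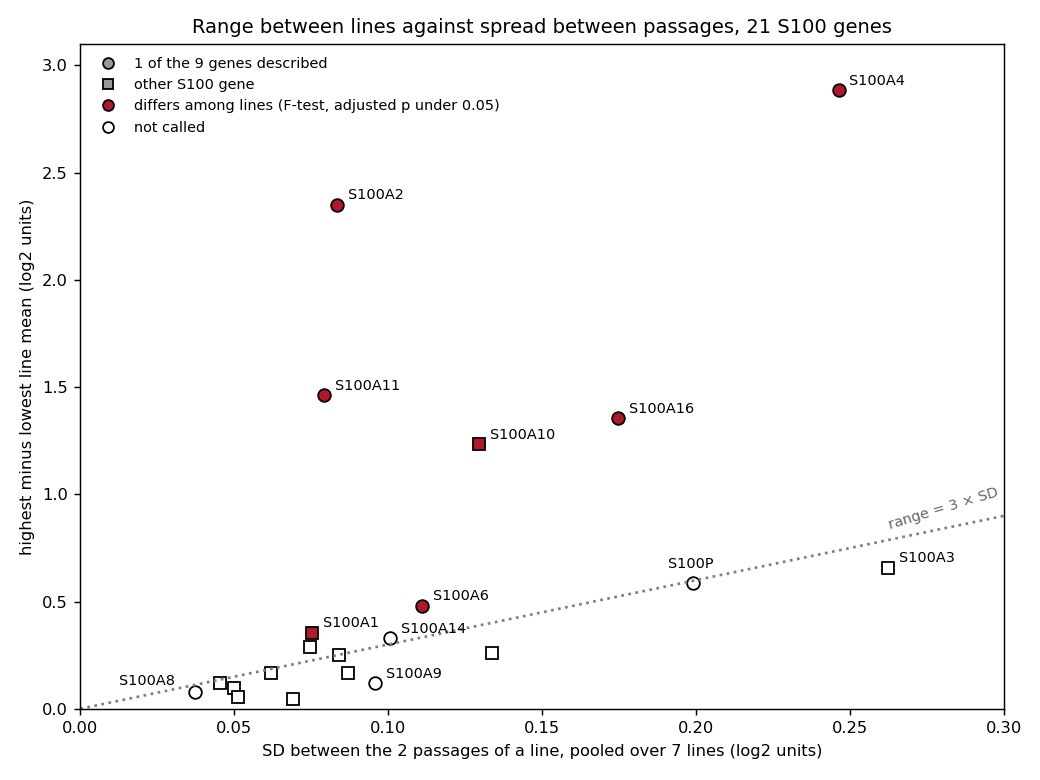
Range of the 7 line means (vertical axis, log2 units) against the SD between the 2 passages of a line pooled over 7 lines (horizontal axis, log2 units) for 21 S100 genes; circles are the 9 members, squares the 12 others, filled symbols passed the F-test, and the dotted line marks a range of 3 SDs. S100A4 and S100A2 stand highest, S100A11, S100A16 and S100A10 lie between 1.23 and 1.46, and the genes that were not called lie near or under the dotted line.

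The first comparison asked how the 5 lines of PC3 background differ from the 2 of DU-145 background. Its SEs and p-values rest on the spread between passages, not on the spread among lines of a background. The same holds for later comparisons of the 5 lines with the 2. S100A4 was 4.52-fold higher in PC3 lines (log2 difference 2.18, SE 0.13, adjusted p = 4.88e-07), S100A2 2.58-fold higher (1.37, SE 0.05, adjusted p = 1.66e-08) and S100A16 1.78-fold higher (0.83, SE 0.09, adjusted p = 4.01e-05). S100A11 was 2.28-fold lower in PC3 lines (−1.19, SE 0.05, adjusted p = 3.51e-08) and S100A6 1.28-fold lower (−0.35, SE 0.06, adjusted p = 0.000989). S100P (0.30, SE 0.10, adjusted p = 0.0399) and S100A14 (0.16, SE 0.06, adjusted p = 0.0493) were slightly higher and just passed the threshold. In all 7 of 9 members passed, 5 higher and 2 lower, against 38.8% of all genes (22.3% higher and 16.5% lower). The median size of the log2 difference was 0.35 over the members and 0.10 over all genes. Over all 21 S100 genes measured, 11 passed (52.4%), with a median size of 0.16. The members were chosen with earlier results of these data known, so their share and median carry no test.

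The arrays of S100A4, S100A16, S100A11 and S100A6 did not overlap between the backgrounds. How many of all genes had no overlap was not counted, so the non-overlap has no reference here. The S100A2 arrays did overlap, since Clone 1 replicate 2 (543) lay below DU-145 replicate 1 (548). Those of S100P and S100A14 overlapped too, and these calls were lost in 10 and 12 of 18 alternatives. Leaving out DU-145 replicate 2 took the adjusted p to 0.120 for S100P and 0.241 for S100A14, and these were the highest of the alternatives. Of the 5 epithelial markers, CDH1 (−1.56), EPCAM (−0.97) and KRT8 (−0.96) were lower and KRT19 (0.68) higher in PC3 lines, and their part in the S100 values was not tested. S100A8 (−0.05, 95% interval −0.12 to 0.02, adjusted p = 0.269) and S100A9 (−0.02, interval −0.14 to 0.10, adjusted p = 0.765) did not pass. A limma fit with the line as the unit and without PC3-N is given with the bone metastatic label below. In it S100A4, S100A11 and S100A6 passed. S100A2 (1.34, adjusted p = 0.128), S100A16 (0.81, adjusted p = 0.0783), S100P (adjusted p = 0.268) and S100A14 (adjusted p = 0.339) did not.

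**Figure D3:**
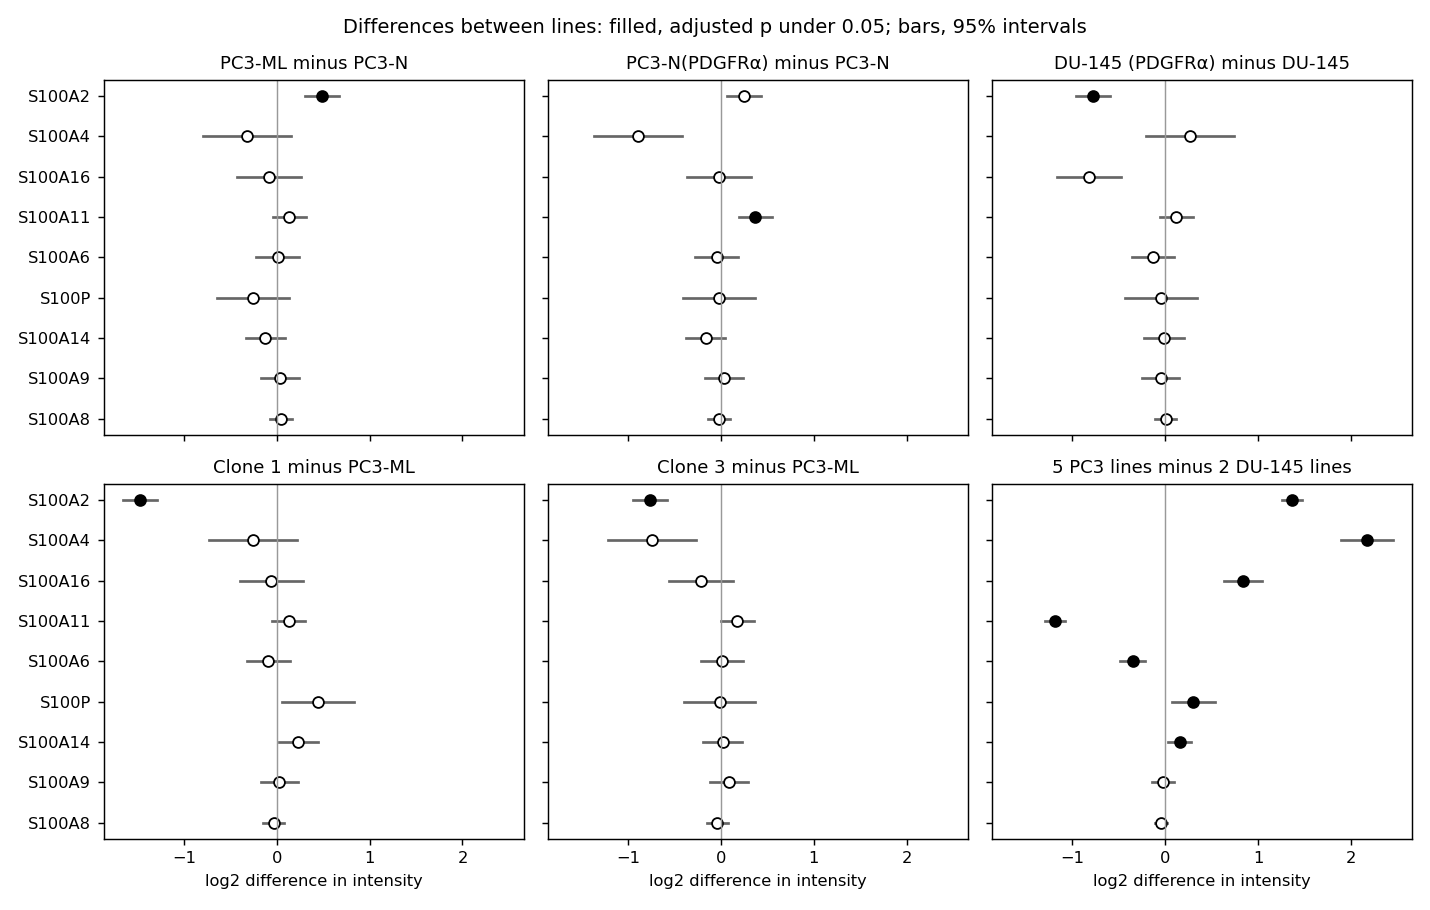
Log2 difference in intensity (horizontal axis) of the 9 S100 genes in 6 comparisons; filled points have an adjusted p under 0.05 in limma and bars are 95% intervals. S100A2 is filled in 5 of the 6 panels, above 0 for PC3-ML minus PC3-N and for PC3 minus DU-145 lines and below 0 for both clones and for DU-145 (PDGFRα) minus DU-145, and in the panel of PC3-N(PDGFRα) minus PC3-N the filled gene is S100A11.

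PC3-ML, labelled bone metastatic, was then compared with PC3-N, which is not. S100A2 was 1.40-fold higher in PC3-ML (1613 ± 29.1 against 1152 ± 59.6, SD, n = 2; log2 difference 0.49, SE 0.08, 95% interval 0.30 to 0.67, adjusted p = 0.0444 in limma). It was the 1 member of 9 that passed, against 0.348% of all genes. The arrays did not overlap, but the adjusted p rose above 0.05 in 15 of 20 alternatives, with quantile normalization and with any of the 14 arrays left out (up to 0.284), while the log2 difference stayed between 0.39 and 0.54. S100A4 was lower in both PC3-ML arrays than in both PC3-N arrays without passing (−0.32, interval −0.80 to 0.15, adjusted p = 0.716). The other 7 members had log2 differences between −0.26 (S100P) and 0.13 (S100A11). Of the 5 epithelial markers KRT8 was lower in PC3-ML (−1.08, adjusted p = 0.0308 in limma). An unadjusted p under 0.05 was reached by 4 of the 5, and by 1930 of all 18372 genes. The part of these markers in the S100 values was not tested.

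In PC3-N the gain of PDGFRα went with a 1.29-fold higher S100A11 (517 ± 13.3 against 401 ± 38.4, SD, n = 2; log2 difference 0.37, SE 0.08, interval 0.19 to 0.54, adjusted p = 0.0454). That was 1 of 9 members, against 2.2% of all genes. The S100A11 call was lost in 13 of 19 alternatives, among them quantile normalization (adjusted p = 0.0924), the filter on dim probe sets (0.0614), the replicate block (0.0602) and leaving out PC3-N replicate 1 (0.234) or PC3-N(PDGFRα) replicate 1 (0.243), the last being the highest. S100A4 was 590.2 ± 62.4 against 1105 ± 173, with no overlap, and its larger difference of −0.90 (SE 0.21, interval −1.37 to −0.43) did not pass, with an adjusted p of 0.0660. It passed in 6 of 19 alternatives, which were quantile normalization (0.0353), the filter on dim probe sets (0.0129), the eBayes fit with trend and robust settings (0.0205), the replicate block (0.0402) and the fit without either DU-145 array (0.0141). S100A2 measured 1371 ± 102 in PC3-N(PDGFRα), above both PC3-N arrays, and did not pass (0.25, interval 0.07 to 0.43, adjusted p = 0.179).

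In DU-145 the gain of PDGFRα went with a lower S100A2. It measured 543 ± 6.40 in DU-145 and 316 ± 17.6 in the overexpressing line (SD, n = 2), which was 1.72-fold lower (−0.78, SE 0.08, interval −0.96 to −0.60, adjusted p = 0.00641). It was 1 of 9 members, against 0.31% of all genes. The call held in 18 of 19 alternatives and was lost without DU-145 (PDGFRα) replicate 2 (−0.73, adjusted p = 0.0574). S100A16 had a difference of the same size (86.4 ± 14.1 against 152 ± 17.5; −0.82, SE 0.15, interval −1.16 to −0.48) but a wider spread, and did not pass (adjusted p = 0.0680). It passed with the filter on dim probe sets (0.0208), with trend and robust settings (0.0207) and without DU-145 replicate 2 (0.0404). S100A11 (0.12, interval −0.06 to 0.29) and S100A4 (0.27, interval −0.21 to 0.74) did not pass and overlapped between the lines.

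The change with the receptor was compared directly between the 2 backgrounds. Each overexpressing line is a single derivation, so the receptor and the derivation cannot be told apart. For S100A2 the log2 change was 0.25 in the PC3-N pair, which was not called, and −0.78 in the DU-145 pair. The changes differed by 1.03 (SE 0.12, interval 0.77 to 1.29, adjusted p = 0.00593 in limma). This held in all 19 alternatives, with adjusted p between 0.00118 and 0.0374. S100A2 was the 1 member of 9 that passed, against 0.533% of all genes. For S100A4 the changes differed by −1.17 (SE 0.30, adjusted p = 0.145), for S100A16 by 0.80 (SE 0.22, adjusted p = 0.166) and for S100A11 by 0.25 (SE 0.11, adjusted p = 0.402). None of these passed. S100A4 passed with the filter on dim probe sets (0.0425) and without DU-145 replicate 1 (−1.54, adjusted p = 0.0327).

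The clones were compared with PC3-ML, the line each was grown from. S100A2 was lower in both. It measured 580.2 ± 53.2 in Clone 1, 2.79-fold lower than PC3-ML (−1.48, SE 0.08, adjusted p = 2.53e-05), and 948 ± 53.6 in Clone 3, 1.70-fold lower (−0.77, SE 0.08, adjusted p = 0.000849). Clone 1 was in turn 1.64-fold lower than Clone 3 (−0.71, SE 0.08, adjusted p = 0.000616). S100A2 was the 1 member of 9 to pass in each of these comparisons, against 13.8% of all genes for Clone 1 minus PC3-ML, 8.1% for Clone 3 minus PC3-ML and 10.5% for Clone 1 minus Clone 3. All 3 S100A2 calls held in every alternative run. These comparisons and that of PC3-ML with PC3-N share the PC3-ML arrays or a clone's arrays, so their signs are not independent of each other.

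S100A4 was lower than PC3-ML on both Clone 3 arrays (524 ± 44.6 against 879 ± 78.8) and just missed the threshold (−0.75, SE 0.21, interval −1.22 to −0.27, adjusted p = 0.0627). It passed in 6 of 20 alternatives, with quantile normalization (0.0275), the filter on dim probe sets (0.0120), trend and robust settings (0.0237), the replicate block (0.0343) and without either DU-145 array (0.0115). In Clone 1 it measured 739 ± 103 (−0.25, interval −0.73 to 0.22, adjusted p = 0.553). S100P was higher on both Clone 1 arrays than on those of PC3-ML (0.45, SE 0.17, adjusted p = 0.133) and of Clone 3 (0.46, adjusted p = 0.145), without passing. Both passed when either PC3-N array, which are far apart for this gene, was left out (adjusted p = 0.00749 against PC3-ML and 0.00748 against Clone 3). S100A14 had a like position in Clone 1 (0.23 above PC3-ML, adjusted p = 0.154). In the epithelial list, EPCAM (1.81), KRT8 (0.92) and KRT18 (2.20) were also higher in Clone 1 than in PC3-ML; their part in the S100 values was not tested.

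For the bone metastatic label the line is the unit, and 4 line means were compared with 3. Of the 9 members 0 passed, as did 0 of the 18372 genes, or 0%; at an unadjusted p under 0.05 there was 1 member and 2250 genes (limma). That member was S100A6 (−0.25, adjusted p = 0.405). S100A4 (1.12, adjusted p = 0.498), S100A2 (0.85, adjusted p = 0.495), S100A16 (0.49, adjusted p = 0.487) and S100A11 (−0.67, adjusted p = 0.445) had larger differences that did not pass. All bone metastatic lines are of PC3 background, and PC3-N is the 1 PC3 line without the label.

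Within the PC3 lines the signs were opposite for 4 of these genes. Against PC3-N, the 4 bone metastatic PC3 lines together had a log2 difference of −0.72 for S100A4, −0.13 for S100A2, −0.14 for S100A16 and 0.27 for S100A11, with PC3-N as the only line of its arm. The spread then comes from the other 4 lines alone, so these values carry no test here. When PC3-N was left out, the labels coincided with the backgrounds, and S100A4 (2.03, adjusted p = 0.00572), S100A11 (−1.13, adjusted p = 0.00153) and S100A6 (−0.36, adjusted p = 0.0155) passed, with 13.7% of all genes. In this limma fit S100A2 (1.34, adjusted p = 0.128) and S100A16 (0.81, adjusted p = 0.0783) did not pass, though both did between backgrounds with passages as the unit. With these lines, the label and the PC3 background cannot be told apart beyond the 1 line PC3-N.

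Among the 12 other S100 genes, 2 differed among the lines, against 38% of all genes. S100A10, which lies beside S100A11 on chromosome 1, does not bind calcium and forms a complex with annexin A2. It was 1.70-fold lower in PC3 than in DU-145 lines (−0.76, SE 0.07, adjusted p = 1.11e-05) and 1.55-fold lower in Clone 1 than in PC3-ML (−0.63, SE 0.12, adjusted p = 0.00607). Both Clone 3 arrays also lay below those of PC3-ML, without passing (−0.41, interval −0.68 to −0.15, adjusted p = 0.0611). Clone 1 minus Clone 3 did not pass for it either (−0.21, adjusted p = 0.381). S100A1, a member of heart and skeletal muscle, differed among lines (adjusted p = 0.0293 by the F-test) over arrays from 26.5 to 36.0. Between backgrounds 4 of the 12 passed, 2 higher and 2 lower in PC3 lines, against 38.8% of all genes. Apart from S100A10 in Clone 1, 0 of the 12 passed in the comparisons within a background (limma). Of all genes, from 0.31% (receptor in DU-145) to 13.8% (Clone 1 minus PC3-ML) were called there. At an unadjusted p under 0.05 there was 1 of the 12 for PC3-ML minus PC3-N (1930 of all 18372 genes). There was also 1 for the receptor in PC3-N (2513 genes), 1 for the receptor in DU-145 (2386), 1 for Clone 3 minus PC3-ML (3792) and 0 between the clones (3766).

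**Figure D4:**
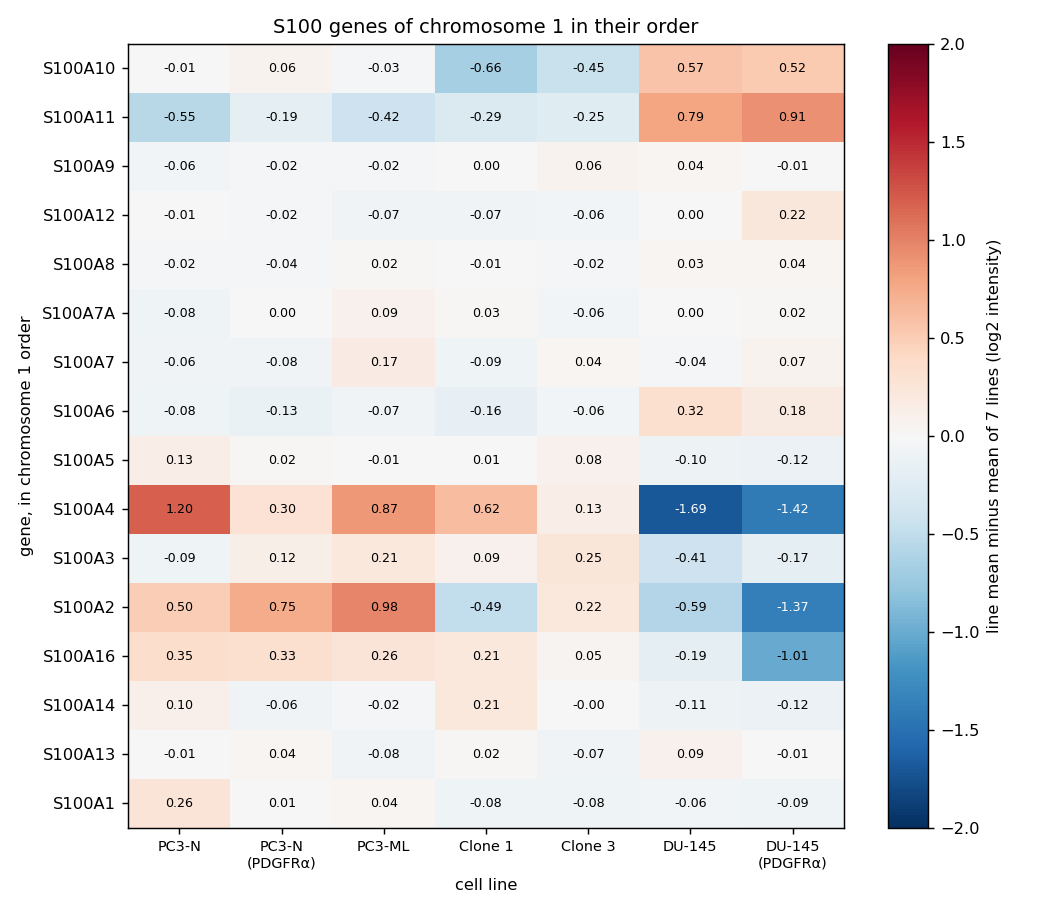
Line mean minus the mean of the 7 lines, in log2 intensity (colour and printed value), of 16 S100 genes of chromosome 1 in their order (vertical axis) for the 7 cell lines (horizontal axis). S100A10 and S100A11 at the top are above 0 in both DU-145 lines, S100A4, S100A2 and S100A16 are below 0 there, and S100A6 (0.32) and S100A3 (−0.41) also stand off 0 in DU-145.

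Neighbours on chromosome 1 did not all differ in the same direction. S100A6, S100A5, S100A4, S100A3, S100A2, S100A16 and S100A14 follow each other in the RefSeq gene order. In DU-145, S100A6 was 0.32 above its mean over the lines, S100A5 0.10 below, S100A4 1.69 below, S100A3 0.41 below, S100A2 0.59 below, S100A16 0.19 below and S100A14 0.11 below. S100A4 and S100A2 also parted in single lines: Clone 1 was 0.62 above the mean for S100A4 and 0.49 below it for S100A2. S100A10 and S100A11 were both above their means in DU-145 (0.57 and 0.79), and in Clone 1 S100A10 was 0.66 below its mean and S100A11 0.29 below.

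Targets and receptors of S100 proteins were read from a list of 23 genes, of which 21 were measured. Between backgrounds 15 passed, 7 higher and 8 lower in PC3 lines, against 38.8% of all genes, and the median size of the log2 difference over the list was 0.32 against 0.10 over all genes. The list was chosen with earlier results of these data known, so its share and median carry no test. The largest differences were those of ANXA6 (1.30), MYH10, a non-muscle myosin heavy chain (−1.16), ANXA11 (0.87), and CACYBP, the S100A6 partner (−0.71). ANXA1, the partner of S100A11, was 1.61-fold lower in PC3 lines (−0.69, adjusted p = 1.12e-06). ANXA2, the partner of S100A10, was higher there (0.23, adjusted p = 0.0027), while S100A10 was lower (−0.76). ANXA1 and ANXA2 were named after their values were seen. AGER, the receptor, lay between 33.7 and 48.3 on all arrays.

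In single comparisons fewer partners passed. TLR4, a receptor of S100A8 and S100A9, was 1.53-fold higher in PC3-ML than in PC3-N (adjusted p = 0.00968) and 1.52-fold lower in Clone 3 than in PC3-ML (adjusted p = 0.00164), at intensities of 21.9 to 35.5 near the lower end. CACYBP was 1.54-fold higher (0.62, adjusted p = 0.0162) in PC3-N(PDGFRα) than in PC3-N. In DU-145 (PDGFRα) against DU-145, 0 of 21 passed, against 0.31% of all genes (limma). At an unadjusted p under 0.05 there were 5 of the 21 and 2386 of all 18372 genes. Clone 1 against PC3-ML had 4 higher and 3 lower (13.8% of all genes were called there), led by ANXA6 (0.69), STIP1, a co-chaperone (0.68), MYH9, the myosin that S100A4 binds (0.67), and AHNAK, a scaffold for S100A10 with annexin A2 (−0.66). Clone 3 against PC3-ML had 0 higher and 4 lower (8.1% of all genes), which were SUGT1 (−0.64), TLR4 (−0.60), S100PBP (−0.57) and ANXA1 (−0.57). Between the clones 6 were higher and 2 lower in Clone 1 (10.5% of all genes), led by ANXA6 (0.93), SUGT1 (0.93), AHNAK (−0.76) and MYH9 (0.61).

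Other calcium-binding and neighbouring genes gave a mixed count. Of 18 other EF-hand genes, 11 differed among the lines in the F-test. Of 6 fused-type S100 genes, the filaggrin relatives of the epidermal complex, 1 did, and of 13 further genes of that complex 1 did. Over all genes the share was 38%.

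For each member whose line means spanned at least 1 log2 unit, the genes with the most similar pattern over the 7 line means were read off, among 2092 genes of that span. These correlations have 7 points that fall into 2 backgrounds, so any gene that separates the backgrounds scores high, and they carry no test. For S100A2 they were GART, an enzyme of purine synthesis (r = 0.985), UPRT (r = 0.976) and COX18 (r = 0.969). For S100A4 they were RPE65 (r = 0.995), ADIRF (r = 0.994) and the histone gene H3-3B (r = 0.988). For S100A11 they were the polarity gene PARD6B (r = 0.997), TRMT1L (r = 0.995) and the chromatin remodelling gene BAZ1A (r = 0.992). For S100A16 they were MRPL37, of the mitochondrial ribosome (r = 0.989), USP39 (r = 0.980) and TP53BP1 (r = 0.974).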

How the data were processed

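The values analysed were intensities that the authors deposited after RMA, per the submitters' processing notes; their linear scale was read from the values, no source used here names a version of RMA or the array's genome build. All tests used log2 of the intensity without a pseudocount. Of 28829 probe sets, 19291 carried 1 gene symbol, 1735 several and 7803 none; 19260 matched RefSeq, which gave names, gene order and promoter letters. Where a gene had more than 1 probe set, the brightest over all arrays was kept, which left 18372 genes.

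Groups follow the labels. A single limma 3.58.1 model (R 4.3.3) held 1 mean for each line over the 14 arrays (7 residual degrees of freedom, two-sided, Benjamini-Hochberg adjustment over 18372 genes, called at an adjusted p under 0.05); the bone metastatic label was tested on 7 line means. The number of arrays limits the precision. The script was tested on simulated data. Alternatives were quantile normalization, a filter keeping log2 intensities of at least 6 on 2 arrays or more (6655 genes, 5 members), and trend and robust eBayes. Others were the mean of all probe sets of a gene, the replicate number as a block, and each array or line left out. Tallies of 20 include the crossed replicate numbers described below. The mean over probe sets leaves the members' values as they were, since each has 1 probe set. Leaving out an array of a line outside a comparison keeps its log2 difference and changes only the shared spread.

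All 9 members are named, with up to 4 called S100 relatives or partners per comparison by size of difference, and 3 genes of like pattern per widely varying member. ANXA1 and ANXA2 were added to these between backgrounds. Members and lists were chosen with earlier results of these data known.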

Additional observations from a re-analysis of the deposited data

Results flagged for a closer look

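The log2 change of S100A2 with PDGFRα overexpression differed between the backgrounds. It was 0.25 in PC3-N, which was not called (adjusted p = 0.179 in limma), and −0.78 in DU-145. The difference was 1.03 (SE 0.12, adjusted p = 0.00593 in limma). Each overexpressing line is a single derivation, so the receptor and the derivation cannot be told apart. The test of the difference itself brought it up. PDGFRA stood at 834 ± 23.3 in PC3-N(PDGFRα) and 111 ± 26.4 in DU-145 (PDGFRα) (SD, n = 2), and the part of this gap in the S100A2 values was not tested.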

How the results depend on the processing

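Of 184 recomputed counts of called members, 142 stayed within 1.5 times the reported count and 42 moved. No member's called difference turned its sign. A count could stay the same while the called member changed. In PC3-N(PDGFRα) minus PC3-N, quantile normalization, the dim filter, trend and robust settings and the replicate block called S100A4 in place of S100A11. With quantile normalization the count for PC3-ML minus PC3-N was 0, and for Clone 3 minus PC3-ML 2. With the filter on dim probe sets it was 2 for the receptor in DU-145, 2 for the difference between the receptor pairs and 2 for Clone 3 minus PC3-ML. With trend and robust settings it was 2 for the receptor in DU-145 and 2 for Clone 3 minus PC3-ML. With single arrays left out, counts ran from 0 to 1 for PC3-ML minus PC3-N and 0 to 2 for the receptor in PC3-N and in DU-145. They ran from 1 to 2 for the difference between the receptor pairs, for each clone against PC3-ML and between the clones. Between backgrounds they ran from 5 to 6, and in the F-test from 4 to 6. With lines left out, the label's count ran from 0 to 3.

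The replicate numbers were not taken to pair the arrays, since the correlation of deviations passed 0.1 for some compared lines and not for others: 0.24 for PC3-N with its receptor line and 0.22 for PC3-ML with Clone 1, but 0.036 for DU-145 with its receptor line, −0.07 between the clones, −0.12 for PC3-ML with Clone 3 and −0.20 for PC3-ML with PC3-N. With the replicate block, Clone 3 minus PC3-ML had 2 members called, and the genes called fell to 42 from 64 for PC3-ML minus PC3-N and to 10 from 57 for the receptor in DU-145. With crossed numbers, an alternative chosen after seeing the data, 1 member and 121 genes were called for PC3-ML minus PC3-N, and 1 member and 1483 genes for Clone 3 minus PC3-ML. Over all genes, the dim filter gave 104 for PC3-ML minus PC3-N and 1 for the label, and trend and robust settings gave 100 for the receptor in DU-145.

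S100A8, S100A9, S100A14 and S100P lay near or below the array median, where the signal over background limits what an array can measure.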
